A study of Caenorhabditis elegans with 2 samples.

Results

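The cuticle collagen genes of Caenorhabditis elegans were examined for binding of eGFP-tagged R02D3.7, the protein of the gene rcat-1, in L2 larvae. Members were the protein-coding genes with a col- symbol, together with the letter-named collagen genes sqt-1 to sqt-3, rol-6, bli-1, bli-2 and a fixed set of 11 dpy genes. The rule uses symbols and no binding value. It gave 173 genes of 19973 protein-coding genes on the nuclear chromosomes, 156 with a col- name and 17 with a letter name. All 173 were matched to a RefSeq product, and 166 of the 173 products name a cuticle collagen. The other 7 products name a collagen without the cuticle (col-17, col-46, col-47, col-52, col-55, col-87 and col-135). The collagen genes were short, with a median length of 1221 bp and a median of 2 exons, against 2027 bp and 6 exons over all protein-coding genes.

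The data are ChIP-seq peak lists from 1 group with 2 biological replicates. Both were whole larvae, mixed in sex, of strain OP218, which carries the mutation unc-119(ed3) III and the transgene wgIs218 that makes the tagged protein. The age within the stage is labelled unknown, and the promoter that drives the transgene is not given in the sources used here. There was no second stage, strain or untagged group, so no difference between groups was tested. A control was named in the deposited notes and was not analysed here. In whole larvae, a region bound in few cells and a region bound weakly in many cells cannot be told apart.

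Cuticle collagens are small secreted proteins built of Gly-X-Y repeats. The epidermis makes them afresh before each moult, in waves within the moulting cycle, and they are trimmed, assembled into trimers and cross-linked into the new cuticle. Mutations in the letter-named genes change the shape of the body (dumpy, squat and roller worms) or lift the cuticle in blisters, while most col- genes have no mutant phenotype of their own by which they were named.

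A gene's promoter window reached 1000 bp upstream and 200 bp downstream of each of its annotated 5′ ends, and the gene was scored by the strongest summit inside. Strength is column 7 of the lists, a signal whose scale is not stated, and a rank of 1 is the strongest region of a list. The authors' lists hold 30000 candidate regions for each replicate and 30000 for the reads of both replicates joined. The smaller set of 542 regions was kept by the irreproducible discovery rate (IDR) step, which compares how regions rank in replicates. These 542 were the 542 strongest joined regions, so that an IDR rank is also a joined rank. A place in the IDR set does not by itself mean like ranks in the 2 replicates, as the regions at col-38 and col-63 show below. Signal values run from 11.6 to 1699 in the joined list, from 7.74 to 1257 in replicate 1 and from 4.89 to 448 in replicate 2. They are the authors' own values and are compared only within a list. Read depth is unknown.

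The strongest region at any collagen gene lay upstream of col-8, on chromosome III. Its summit stood 886 bp before the 5′ end of col-8, at rank 74 of the joined list. The next lay upstream of col-71 at rank 433 and of col-38 at rank 515, both on chromosome II. The plus-strand sequence (ce11, from RefSeq's copy of the assembly) around these 3 summits is shown because the IDR calls at these genes rest on them. The stretches are III:7021440-7021536 for col-8, II:3502771-3502871 for col-71 and II:8569501-8569601 for col-38. Capitals mark 4 words that earlier work on these same data found at many IDR summits, searched on both strands. The first is ACGCGC and the second is GACGCA. The third, written CGTAAA, lies within the fourth, which is CGTAAATC, so that matches to both overlap. The summit is base 47 of the 97 printed for col-8, where bases further left belong to a 5′ UTR of rfl-1 and are not shown. It is base 51, the middle base, of each of the others.
col-8: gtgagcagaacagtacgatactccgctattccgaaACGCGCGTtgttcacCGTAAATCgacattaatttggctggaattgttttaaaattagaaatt
col-71: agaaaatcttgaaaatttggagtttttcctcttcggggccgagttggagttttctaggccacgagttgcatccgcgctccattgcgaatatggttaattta
col-38: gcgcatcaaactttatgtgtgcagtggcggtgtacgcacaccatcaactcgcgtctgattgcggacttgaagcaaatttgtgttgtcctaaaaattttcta
The col-8 stretch holds ACGCGC on both strands in overlapping positions, with first bases 11 and 9 bases before the summit, and CGTAAATC 4 bases after it. The col-71 and col-38 stretches hold none of the 4 words.

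Only 4 of the 173 collagen genes had an IDR summit in the window (2.31%, 95% Wilson interval 0.903 to 5.79), against 3.47% of all protein-coding genes. The all-gene share lies within the interval of the collagen genes. These intervals cover counting error alone. All 4 are col- genes on the minus strand, namely col-8, col-71, col-38 and col-63. The col-8 region was strong in every list, with a signal of 214 in the joined list, 146 in replicate 1 and 63 in replicate 2. Its ranks were 74, 82 and 65 in these lists, so both replicates placed it among their 100 strongest. The region was also narrow, 141 bp wide against a median of 330 bp in the IDR set.

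At col-71 the signal was 46.2 in the joined list, 30.4 in replicate 1 and 13 in replicate 2. The ranks were 433, 508 and 929, and the summit stood 251 bp upstream in the joined list. At col-38 the signal was 40.6 in the joined list and 34.6 in replicate 1, at ranks 515 and 440. In replicate 2 the same region reached only 5.43, at rank 24397. The region at col-63, on chromosome I, behaved the same way, with 39.5 in the joined list at rank 534, 32.4 in replicate 1 at rank 471 and 6.35 in replicate 2 at rank 16868. The replicates therefore gave like ranks at col-8, ranks on either side of 542 at col-71, and very different ranks at col-38 and col-63. The lowest signal in the IDR set was 39.1, close below col-63 and col-38.

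A summit in a window need not belong to that gene, and 3 of the 4 IDR summits stood nearer to the 5′ end of another protein-coding gene. The col-8 summit lies in an intron of rfl-1, which encodes a subunit of the NEDD8-activating enzyme and runs the other way. It was 280 bp downstream of one rfl-1 5′ end and 399 bp upstream of the other, and 499 bp upstream of the non-coding RNA gene F11H8.5. The col-71 summit was 147 bp upstream of Y49F6B.2, which is divergent from col-71. The col-38 summit was 376 bp upstream of rpl-5, the divergent gene of a large-subunit ribosomal protein, and fell in exons of the non-coding RNA genes F54C9.16 and F54C9.17. For col-63 no other protein-coding 5′ end was nearer, and its summit at I:8245390, 427 bp upstream, lay 115 bp from the 3′ end of the homeobox gene ceh-8. Which of these genes, if any, the protein acts on was not tested.

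**Figure D1:**
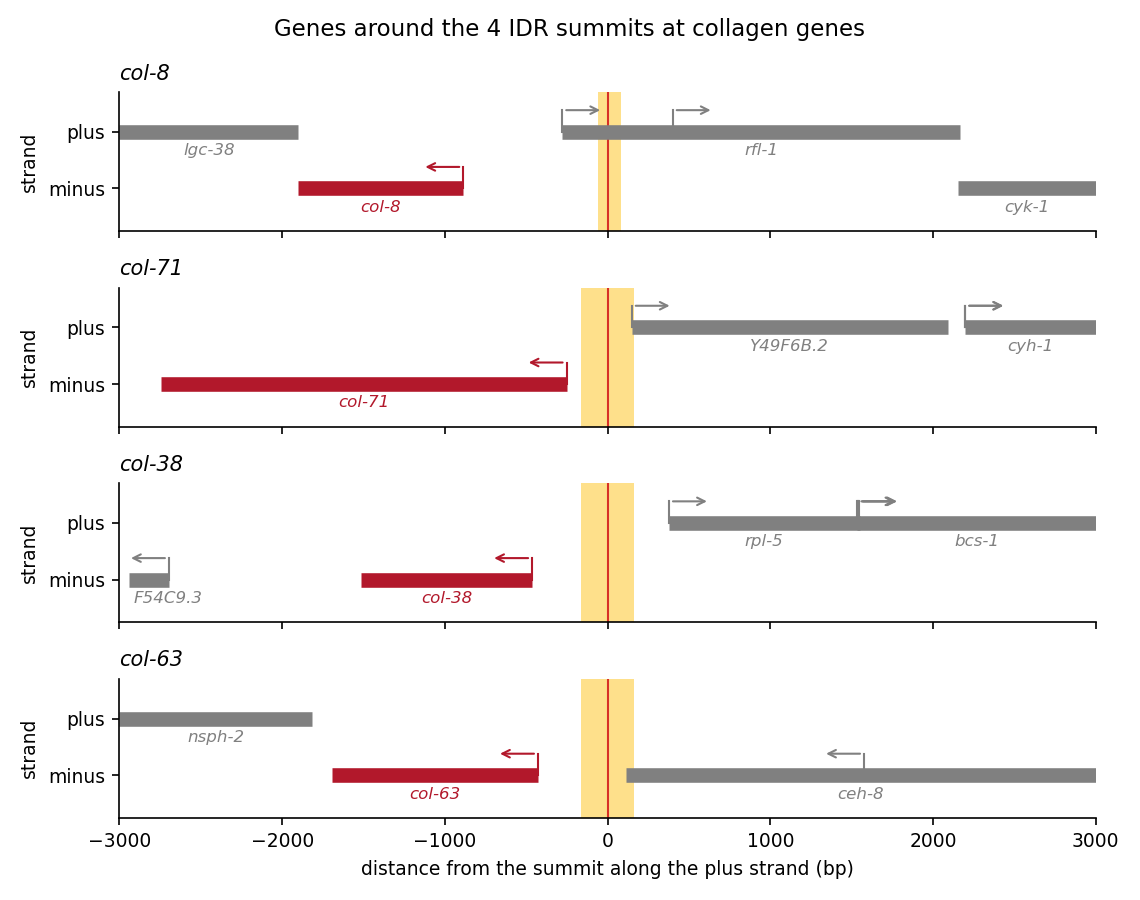
Genes around the 4 IDR summits at collagen genes, with the distance from the summit in bp along the plus strand on the x axis. The pale band is the region, the vertical line its summit, thick bars are gene bodies (collagen genes in red, others in grey) and arrows are annotated 5′ ends. At col-8, col-71 and col-38 a grey 5′ end stands nearer to the summit than the red one, at 280, 147 and 376 bp, and at col-63 none does.

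The share of genes whose own 5′ end was the nearest to their strongest joined summit was lower among the strongest regions. Within the IDR set it was 1 of 4 collagen genes, against 442 of 694 genes overall (63.7%). Over ranks to 3000 it was 4 of 7 (57.1%), against 74.0%, and over all ranks 56 of 70 (80.0%), against 83.4%. An IDR summit nearest to the gene's own 5′ end was thus found at 1 collagen gene (0.578%), against 2.25% of all protein-coding genes. A second protein-coding 5′ end lay in the window of 29 collagen genes (16.8%), against 22.9% of all genes. Of these 29 genes, 3 had an IDR summit (10.3%), against 9.85% of all genes with such a window. Of the other 144 collagen genes, 1 had one (0.694%), against 1.58%. Collagen genes and all genes alike had IDR summits mainly where a neighbour's 5′ end was close, and the collagen shares rest on 3 genes and 1 gene. A summit counts for every window it lies in, so such windows also score summits at the neighbour's 5′ end. How much of the difference comes from this scoring was not tested.

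Ranks to 3000 of the joined list added 3 collagen genes, col-93, col-177 and col-53. This made 7 of 173 (4.05%, 95% Wilson interval 1.97 to 8.12), against 9.21% of all protein-coding genes. The all-gene share lies above the interval, which takes genes as independent and covers counting error alone. The interval is not a test of the list, as the rank limit was chosen with earlier results of these data known. The col-93 summit on chromosome III had rank 1076 and signal 28.0, 803 bp upstream, inside the gene body of dhc-4, a dynein heavy chain gene. Its ranks were 6615 in replicate 1 (signal 13) and 664 in replicate 2 (signal 14), so here replicate 2 held the stronger rank. The col-177 summit on chromosome X had rank 1919 and signal 24.2, 530 bp upstream, with ranks of 6226 and 8415 in replicates 1 and 2 and signals of 13.2 and 7.96. The col-53 summit on chromosome I had rank 2068 and signal 23.8, 128 bp upstream. It had rank 1296 in replicate 1 (signal 19.2), and the window held no listed summit in replicate 2. For all 3, the gene's own 5′ end was the nearest. The next gene outside the limit was col-129 at rank 3051 with signal 21.9.

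A further 4 genes passed rank 3000 in one replicate and not in the joined list. In replicate 1 these were dpy-13, a body-shape collagen, with signal 16.9 at rank 2117, and col-161, with signal 17.5 at rank 1863. The dpy-13 window had rank 10377 in replicate 2, from a summit 425 bp upstream, not the one 927 bp upstream of replicate 1. The col-161 window held nothing in replicate 2, and its replicate 1 summit also lay in the window of srh-18, a chemoreceptor-like gene, 74 bp downstream of that 5′ end. In replicate 2 these were col-159, with signal 10.4 at rank 2731, and col-55, with signal 10.2 at rank 2985. The strongest replicate 1 summits in these windows had ranks of 29729 and 13455, and both stood at other places than the replicate 2 summits. The replicate 1 region that overlapped the joined col-55 region had rank 23632. None of the 4 was thus strong in both replicates. Their joined ranks were 6608 for dpy-13, 16762 for col-161, 28705 for col-159 and 29159 for col-55.

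**Figure D2:**
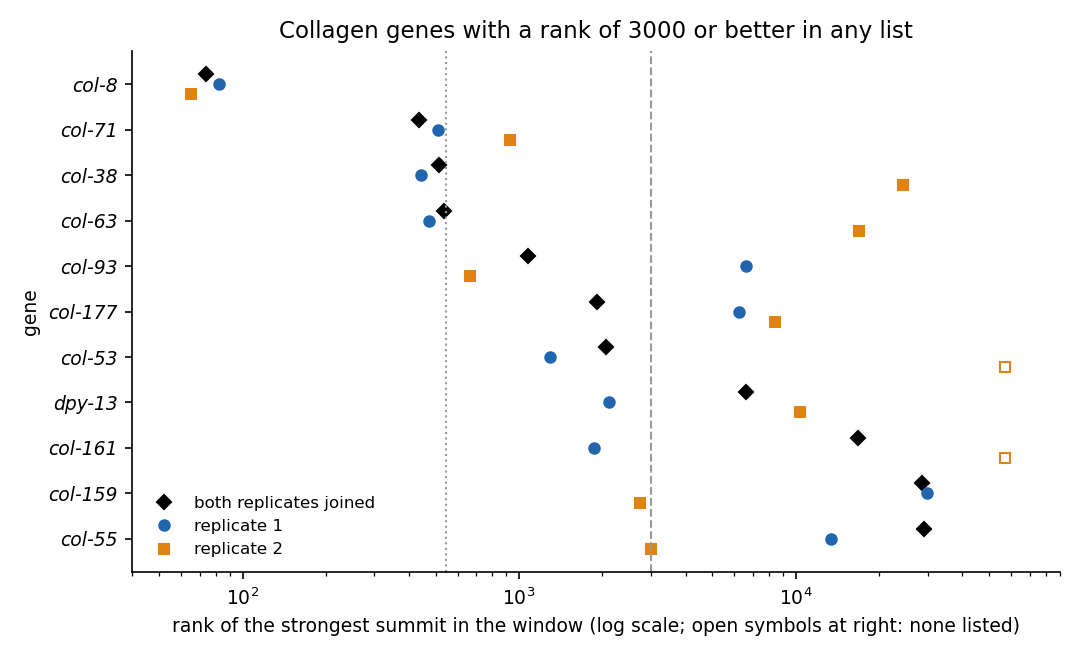
Rank of the strongest summit in the promoter window (log x axis, low is strong) for the 11 collagen genes with a rank of 3000 or better in any list, in the joined list (black diamonds), replicate 1 (blue circles) and replicate 2 (orange squares). Open symbols mark windows with no listed summit, and dotted and dashed lines mark ranks 542 and 3000. The 3 symbols lie together for col-8, at ranks from 65 to 82, and lie far apart for col-38 and col-63.

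The 17 letter-named collagens, the best known of the family, had no IDR summit and no joined summit of rank 3000 or better. A count of 0 of 17 allows a share of up to 17.6%, so this list is too short to separate from the all-gene shares. In the joined list 7 of the 17 had a summit, a share close to the 43.0% of all protein-coding genes. In any list 7 had none (bli-1, bli-2, dpy-2, dpy-7, dpy-9, sqt-1 and sqt-2), as had 63 of all 173 collagen genes. The share of all protein-coding genes without a summit in any list is not given here. Whether these counts are high or low is therefore unknown. The single genes below are described without a claim that the letter-named genes differ. The furrow collagens, dpy-2, dpy-3, dpy-7, dpy-8, dpy-9 and dpy-10, line the circumferential furrows of the cuticle. Among them dpy-10 had signal 19.7 at joined rank 4890, 262 bp upstream, with ranks of 15934 and 9454 in replicates 1 and 2. The joined rank of dpy-3 was 6937 with signal 18.3, its replicate 1 rank was 20827, and the window held no replicate 2 summit. The dpy-8 window held a summit in replicate 2 alone, at rank 23932, and dpy-2, dpy-7 and dpy-9 had none.

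Of the dumpy genes outside the furrow group, dpy-4 had signal 19.7 at joined rank 4948, 960 bp upstream, with rank 25698 in replicate 1. Replicate 2 had an overlapping region there, at rank 19735 with signal 5.96, whose summit fell outside the window. The summit at dpy-13 had joined rank 6608 and signal 18.5. That at dpy-5 had joined rank 6869 and signal 18.4, and stood 246, 224 and 211 bp upstream in the joined, replicate 1 and replicate 2 lists, with replicate ranks of 12637 and 10672. Summits at dpy-14 and dpy-17 were near the end of the joined list, at ranks 27784 and 28785 with signals of 12 and 11.8. For dpy-17 replicate 2 gave rank 12317 and replicate 1 no summit. The genes named for roller and squat mutants had no joined summit. The rol-6 and sqt-3 windows held summits in replicate 2 alone, at ranks 23404 and 17179, and sqt-1 and sqt-2 none. Nor was any listed at bli-1 and bli-2, whose products form the struts between the layers of the adult cuticle. All joined signals at letter-named genes lay between 11.8 and 19.7, below the 22.0 of rank 3000.

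Over the whole family, 29 of 173 genes had a joined summit of rank 10000 or better (16.8%), against 19.7%. Any joined summit was found at 70 (40.5%, 95% Wilson interval 33.4 to 47.9), against 43.0%, and 103 had none. The spread over ranks ran from 1 gene at ranks to 100 and 3 from there to rank 542, through 0 at ranks 543 to 1000 and 3 at ranks 1001 to 3000, to 22 at ranks 3001 to 10000 and 41 beyond. The shares for all protein-coding genes over the same bins were 0.751%, 2.72%, 1.66%, 4.08%, 10.4% and 23.3%. The collagen shares were lower in the bins to rank 3000 (0.578%, 1.73%, 0.0% and 1.73%) and close to or above them in the bins from 3001 (12.7% and 23.7%). Among genes with a joined summit, the median rank was 14026 (quartiles 6008 and 22513) over 70 collagen genes, against 11347 (quartiles 3964.5 and 19734.5) over 8579 genes. The median signal was 15.2, against 16.2.

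Each replicate alone gave the same order of shares at the strong end. In replicate 1, 4 collagen genes had a summit of rank 542 or better (2.31%, against 3.46%), 7 one of rank 3000 or better (4.05%, against 9.31%), and 64 any summit (37%, against 42.6%). In replicate 2 the counts were 1 (0.578%, against 2.77%), 5 (2.89%, against 7.12%) and 73 (42.2%, against 41.9%). The last is the 1 comparison of these in which the collagen share was not below that of all genes. A rank of 542 or better in both replicates was reached by col-8 alone (0.578%, against 2.25%). A rank of 3000 or better in both was reached by col-8 and col-71 (1.16%, against 3.74%). Median ranks were 13086 in replicate 1, against 11258, and 15688 in replicate 2, against 12202.

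**Figure D3:**
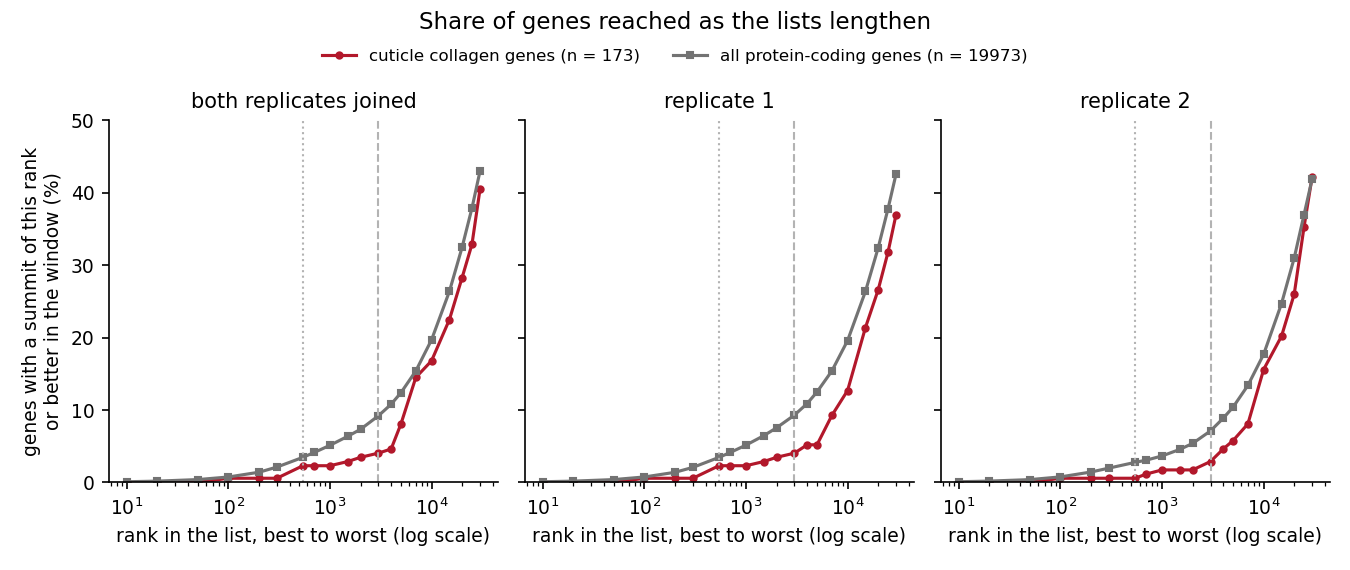
Share of genes (%) with a summit of a given rank or better in the promoter window (log x axis), for the 173 cuticle collagen genes (red) and all 19973 protein-coding genes (grey), in the joined list and each replicate. Dotted and dashed lines mark ranks 542 and 3000. The red line runs below the grey one at every plotted rank of the joined and replicate 1 lists, and meets it at the end of the replicate 2 list, at 42.2% and 41.9%.

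The strongest joined summits at collagen genes stood further from the 5′ end than those of genes in general. In replicate 2 the medians differed little. The median distance was 495 bp upstream for the 70 collagen genes, against 331 bp for all genes with a joined summit. A summit within 250 bp of the 5′ end was found at 16 (22.9%), against 41.1%, and one over 500 bp upstream at 34 (48.6%), against 34.9%. In replicate 1 the medians were 419.5 bp, against 325 bp, and in replicate 2, 363 bp, against 352 bp. Summits within 250 bp were found at 26.6%, against 41.6%, in replicate 1, and at 32.9%, against 39.8%, in replicate 2. Summits over 500 bp upstream were found at 43.8%, against 34.7%, in replicate 1, and at 34.2%, against 36.4%, in replicate 2. The difference beyond 500 bp therefore had the opposite sign in replicate 2, while that within 250 bp kept its sign. Of the collagen genes 150 had a single annotated 5′ end (86.7%), against 72.6%. A gene with several 5′ ends has more ends for a summit to lie near, and the part of this in the distances was not tested.

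**Figure D4:**
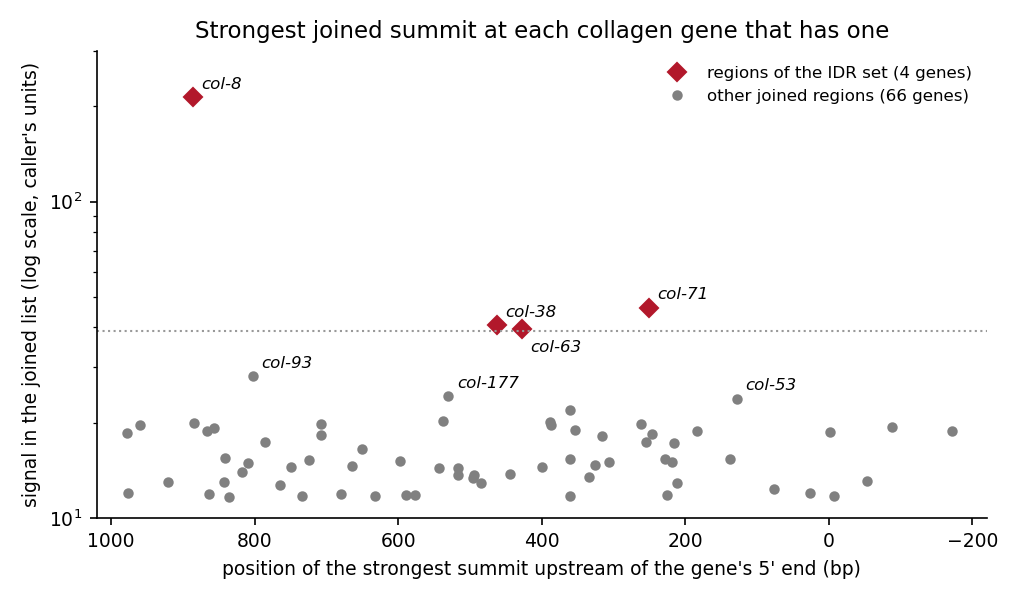
Signal of the strongest joined summit (log y axis, the caller's units) against its position upstream of the 5′ end in bp (x axis, transcription runs to the right) for the 70 collagen genes with a joined summit. Red diamonds are the 4 genes with an IDR region, grey points the other 66, and the dotted line is the lowest IDR signal, 39.1. The col-8 summit stands alone at 214, and all grey points are at 28.0 or below.

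The 70 strongest summits were 68 separate regions. The pair col-159 and col-160 shared one, at rank 28705 with signal 11.8, which stood 589 and 577 bp upstream of their 5′ ends. The pair col-3 and col-117 shared another, at rank 13447 with signal 15.4, at 228 and 360 bp. These genes are not separate observations. Counted by gene, with the 2 shared regions counted for both genes, the strongest joined region overlapped a replicate 1 region at 47 of 70 (67.1%, against 73.7% for all genes with a joined summit) and a replicate 2 region at 41 (58.6%, against 58.7%). Both replicates had an overlapping region at 25 (35.7%, against 39.0%), and neither at 7 (10%, against 6.67%). Overlap with both replicates was thus the less common case, at collagen genes as at genes in general.

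By chromosome, the collagen genes with any joined summit ranged from 9 of 30 on X (30%, against 42.6% of the protein-coding genes there) to 9 of 13 on chromosome III (69.2%, against 47.0%). The shares were 39.1% on I (against 45.1%), 35.5% on II (against 40.8%), 40.9% on IV (against 44.6%) and 43.8% on V (against 40.1%). None of the 44 collagen genes on IV had an IDR summit, against 3.69% of the protein-coding genes there, none of the 32 on V, against 2.54%, and none of the 30 on X, against 0.989%. Counts of 0 allow shares of up to 6.82%, 9.38% and 10%, above the all-gene shares in each case.

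The 4 words searched for above were about as frequent at weak collagen summits as at weak summits of all genes. Within 50 bases to each side of the summit, 1 of the 4 IDR summits at collagen genes held any of them, against 298 of all 542 IDR summits (55.0%). At the strongest joined summits of the other collagen genes, outside the IDR set, 5 of 64 regions did (7.81%), against 610 of 7025 such regions of all genes (8.68%). The promoter windows of the collagen genes did not lack the words. In the 1201 bp around the gene's outermost 5′ end, CGTAAATC was in 10 of 173 (5.78%, against 5.59% of all such windows), and ACGCGC in 35 (20.2%, against 15.8%). The other pair were GACGCA, in 45 (26.0%, against 25% of all such windows), and CGTAAA, in 60 (34.7%, against 39.5%). Among the 10 with CGTAAATC, col-8 alone had an IDR summit, against 18.4% of all genes with that word in the window. With 10 genes, 1 does not stand apart from that share. The GC content of the same stretch had a median of 32.7% at the 68 collagen regions, against 32.7% at the strongest joined regions of all genes, and 45.5% over the IDR set.

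Other genes of cuticle formation and moulting, and 7 collagen genes outside the symbol rule, were scored the same way, from lists of 81 genes. Over all lists, 1 of 81 had an IDR summit (1.23%, against 3.47% of all protein-coding genes), 4 one of rank 3000 or better (4.94%, against 9.21%) and 32 any joined summit (39.5%, against 43.0%). None of the 14 genes for hydroxylation, folding, cross-linking and processing of collagen, such as dpy-18, bli-4 and bli-3, had an IDR summit or a joined summit of rank 3000 or better, and 4 had any joined summit (28.6%, against 43.0%). A count of 0 of 14 allows a share of up to 21.4%, above both all-gene shares. Among 15 genes of moulting and other cuticle matrix, 7 had any joined summit (46.7%, against 43.0%) and none an IDR one. Only 1 had a summit of rank 3000 or better (6.67%, against 9.21%). That was noah-2, for a zona pellucida domain matrix protein, at rank 2912 with signal 22.2, 914 bp upstream. Its replicate 1 rank was 3875, and the window held no replicate 2 summit. Of 10 regulators of the epidermis and moulting, 7 had any joined summit (70%, against 43.0%) and none an IDR one. For 10 genes a count of 0 allows a share of up to 30%, above the 3.47% of all genes. A joined summit of rank 3000 or better was found at 2 of the 10, a higher share than the 9.21% of all genes. A list of 10 is too short to read these shares closely. Those within rank 3000 were nhr-23, a nuclear receptor that drives moulting genes, at rank 2060 with signal 23.8, and grh-1, the grainyhead homologue, at rank 2354 with signal 23.2. Their ranks were 1893 and 10144 in replicates 1 and 2 for nhr-23, and 6136 and 17220 for grh-1. The 35 cuticlin genes, for other insoluble cuticle proteins, had 12 with any joined summit (34.3%, against 43.0%). None had one within rank 3000, and 0 of 35 allows a share of up to 8.57%, against 9.21% of all genes.

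The 1 IDR summit in these lists was at bli-6, a collagen gene outside the symbol rule and 1 of 7 such collagen genes scored. That share (14.3%, against 3.47% of all protein-coding genes) rests on 1 gene. It had rank 239 and signal 77.3, 369 bp upstream, with ranks of 213 and 372 in replicates 1 and 2. It too lay nearer to another gene, 173 bp upstream of hrpf-2, which encodes an RNA-binding protein.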

How the data were processed

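ChIP-seq of eGFP-tagged R02D3.7 was measured in 2 biological replicates of whole L2 larvae. The files are narrowPeak lists on ce11, and the 4 used here are the IDR set, the joined list and the list of each replicate. Column 7 of each deposited list holds the signal that the authors' peak caller gave each region. Its scale is not stated, and what the reads were aligned with or the regions called with is not given here. Candidate regions were called against a control, per the deposited notes. The ce10 lists were not used. Read depth is unknown, and signal values are given per replicate without an SD.

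Summits were matched to windows around the 29784 5′ ends of protein-coding genes in Ensembl release 115 (WBcel235, the same assembly as ce11), with coordinates 1-based, using Python 3.11.15 and pandas 2.3.3. A summit in several windows counted for each gene. Regions overlapped if they shared 1 bp. Shares carry 95% Wilson intervals, and a count of 0 allows 3 counts over the total. The matching was tested on simulated data. No test of the list was made. The genes, lists, words and limits were chosen with earlier results of these data known. Genes named are the members with an IDR summit or a rank of 3000 or better in any list, the letter-named members, the genes sharing those summits, and genes of the other lists with a rank of 3000 or better. The gene col-129 and genes sharing a weaker summit were named after their values were seen.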

Additional observations from a re-analysis of the deposited data

How the results depend on the processing

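The count of 4 collagen genes with an IDR summit fell to 1 when each summit was given to the nearest 5′ end alone (col-63), and was 1 (col-8) in the top 50% of the IDR set and among regions strong in both replicates. It was 3 with a window of 500 bp upstream (1.73%, against 2.99% of all protein-coding genes), which lost col-8. With 2000 bp upstream it was 5 (2.89%, against 4.22%), so the all-gene share moved with the window too. For a replicate left out, ranks of 542 or better in the other replicate's own list were counted in place of the IDR set. This gave 1 without replicate 1 and 4 without replicate 2. The 7 genes of rank 3000 or better became 4 with the 500 bp window, 4 with the nearest 5′ end and 4 at a rank limit of 1000. They became 10 with the 2000 bp window and 8 when any overlap of region and window counted, and were 5 to 7 in single replicates. The 70 with any joined summit became 37 with the 500 bp window, 98 with the 2000 bp window and 77 by overlap, and 64 to 73 in single replicates. For the other windows, all-gene shares are given here for the IDR count alone. The median rank of 14026 lay between 13086 and 15688 throughout. The 1 IDR summit among the 81 genes of the other lists became 0 with the nearest 5′ end, which gives it to hrpf-2. Of 41 alternatives in all, word searches 30 and 100 bases to each side of the summit included, 32 left the result alike. Alike means a count moved by no more than 1.5 times, or the median rank by no more than the SD of the 2 replicates' medians. Those 2 medians are themselves among the alternatives, so for them this limit says little. The alternatives for the genes of the other lists and the words were chosen after seeing the data. The control was not analysed here and read depth is unknown, so a weak region and background cannot be told apart. No paired analysis was possible because there was 1 group.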

Other observations

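Beyond the promoter windows, 3 IDR summits lay within 2000 bp of a collagen gene. They were looked for after the other values were seen. No such count over all protein-coding genes is given here, so whether 3 is many or few is unknown. At sqt-2, a letter-named gene with no summit in its own window, a summit at II:24690 had rank 200 and signal 91.9, with ranks of 198 and 233 in replicates 1 and 2. It lay 232 bp past the 3′ end of sqt-2 and 24 bp downstream of the 5′ end of enee-1. At col-94 on chromosome III a summit had rank 327 and signal 61.6, with ranks of 308 and 573 in replicates 1 and 2. It lay 1786 bp upstream of col-94 and, like the col-93 summit, inside the gene body of dhc-4. At col-128 on chromosome IV a summit 82 bp past the 3′ end had rank 511 and signal 40.8, with ranks of 635 and 1816. All 3 were stronger than the col-63 summit, and the strongest of the 3 was next to the 5′ end of another gene.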
